A study of Homo sapiens with 8 samples.

Results

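The exons described here are 961 cassette exons of intermediate inclusion whose listed length is a multiple of 3 nucleotides (nt), found in 871 genes of JSL1 cells. A cassette exon is either spliced in whole or skipped whole, and its inclusion is the percentage of splicing events that keep it. The authors' deposited tables list local splicing variations (LSVs). An LSV is a group of junctions with a common exon at their start (a source LSV) or at their end (a target LSV). The 961 exons are those of exon-skipping LSVs with 2 junctions, no alternative splice site and no retained intron, present in both tables, with 1 listed exon of over 30 nt inside the skipping junction and a mean inclusion over the 4 groups from 10% to 90%. LSVs with a common skipping junction were averaged as 1 exon. They come from 1188 LSVs and from 19149 cassette exons in all, and the same rule with a length that is not a multiple of 3 gave 1186 exons, called frame-shifting here. Inclusion was part of the rule, so levels are described and not tested. Just inside the lower end were 3 exons with a mean of 10.025%, among them AASDH and NEO1, and just outside it lay PSTK and PIP5K1A at 9.900%. At the upper end 4 exons, among them HIF1A and FAM120B, stood inside, on the limit of 90%, and SPAG1 and RNGTT outside at 90.025% and 90.075%.

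JSL1 cells are a clonal derivative of the human T cell line Jurkat. The groups were shCELF2 cells with PMA, control cells with PMA, shCELF2 cells without PMA and control cells without PMA, with 2 libraries each and 8 in all. PMA, a phorbol ester and activator of protein kinase C, was given at 20 ng/mL for 48 hours. The shCELF2 cells carried lentivirally integrated hairpins against CELF2, a splicing regulator, under a doxycycline-inducible promoter. The sources used here do not say whether control cells carried a hairpin or received doxycycline, or whether libraries were made from separate cultures. Percentages are authors' values per group with its libraries pooled, so the spread between libraries and the read depth are unknown. A call required a posterior probability, as computed by the authors, of at least 0.95 in any LSV of the exon that its share changed by 20 percentage points or more. That probability is not adjusted for the number of exons, and it is the only measure of error for the comparison of shCELF2 with control cells. The tables hold no expression values, so the depletion itself could not be checked. CELF2 held 0 of the 961 exons, and 12 of 16 T cell genes against 3 of 20 genes of other lineages had an LSV listed.

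A cassette exon whose length is a multiple of 3 can be skipped without moving the reading frame, so that the protein loses or gains a block of residues and stays otherwise the same. An exon of another length moves the frame when it is skipped, which often brings an early stop codon and decay of the RNA. CELF proteins bind GU-rich RNA, in which UGU is a common element, mostly in introns beside the exons they regulate. In T cells, antigen receptor signals, mimicked in part by PMA, are known to switch many cassette exons, and MALT1, a paracaspase of NF-kappaB signalling, is a well studied example.

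The exon sequences below are those that the results on CELF2 depletion turn on. They are from GENCODE 29 transcripts on GRCh38, matched by gene ID and by the lengths of the exon and of the introns around it. Positions in these lines are on GRCh38, and all other positions are those of the tables, on hg19. Capitals mark TGT, the DNA letters of UGU, read on the transcript strand alone, and TGTGT counts as 2 overlapping matches. The first set was called in both states, with inclusion higher in shCELF2 cells for MALT1, CLSTN1 and SPATS2L and lower for GOLGA2, MED12, MYO5A and ATPAF1.
MALT1 (chr18:58710921-58710953, plus strand): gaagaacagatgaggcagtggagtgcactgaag
CLSTN1 (chr1:9737498-9737554, minus strand): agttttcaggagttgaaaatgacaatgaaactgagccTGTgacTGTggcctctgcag
SPATS2L (chr2:200439122-200439328, plus strand): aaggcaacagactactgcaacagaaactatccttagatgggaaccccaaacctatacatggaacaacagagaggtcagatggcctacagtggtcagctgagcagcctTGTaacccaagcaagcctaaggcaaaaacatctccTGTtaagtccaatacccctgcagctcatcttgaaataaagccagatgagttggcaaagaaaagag
GOLGA2 (chr9:128267194-128267274, minus strand): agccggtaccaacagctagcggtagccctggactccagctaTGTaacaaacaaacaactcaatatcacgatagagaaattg
MED12 (chrX:71125663-71125713, plus strand): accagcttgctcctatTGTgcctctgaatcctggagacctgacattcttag
MYO5A (chr15:52337810-52337884, minus strand): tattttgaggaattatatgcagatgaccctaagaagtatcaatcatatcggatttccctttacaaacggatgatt
ATPAF1 (chr1:46653817-46653867, minus strand): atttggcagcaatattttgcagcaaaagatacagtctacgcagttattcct

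The next 4 exons were called with PMA and not without it. Inclusion in shCELF2 cells was higher for PITPNM2, SEC16A and MYO9B and lower for ACIN1.
PITPNM2 (chr12:122991755-122991898, minus strand): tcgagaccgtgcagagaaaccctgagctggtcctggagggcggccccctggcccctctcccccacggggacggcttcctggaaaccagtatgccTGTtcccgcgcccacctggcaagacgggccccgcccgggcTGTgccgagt
SEC16A (chr9:136445052-136445111, minus strand): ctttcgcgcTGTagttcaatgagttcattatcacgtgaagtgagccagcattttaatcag
MYO9B (chr19:17210333-17210380, plus strand): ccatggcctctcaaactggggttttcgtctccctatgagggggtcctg
ACIN1 (chr14:23089982-23090101, minus strand): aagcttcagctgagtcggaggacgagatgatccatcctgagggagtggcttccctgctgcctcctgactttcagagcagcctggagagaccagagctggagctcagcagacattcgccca

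The last pair was called without PMA alone, both with higher inclusion in shCELF2 cells.
RPGRIP1L (chr16:53638310-53638411, minus strand): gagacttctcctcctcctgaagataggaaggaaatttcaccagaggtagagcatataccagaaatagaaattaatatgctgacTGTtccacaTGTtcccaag
GRIP1 (chr12:66377017-66377061, minus strand): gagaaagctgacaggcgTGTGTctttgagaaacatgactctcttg

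TGT was found in 59.3% of the 290 matched exons of 31 to 99 nt, in 71.2% of the 236 frame-shifting exons of that length, and in 66.4% of 3580 among all matched cassette exons over 30 nt. Over all lengths it occurred 1.43 times per 100 nt in 662 matched exons, against 1.67 in frame-shifting and 1.60 in all matched exons. Among called exons of 31 to 99 nt it stood in 10 of 12 with lower and in 7 of 15 with higher inclusion in shCELF2 cells with PMA, and in 3 of 8 with lower and 3 of 6 with higher inclusion without PMA. These few exons give no order that holds in both states. The matched exons ended in G in 83.7% of cases, against 78.4% in frame-shifting and 79.7% in all matched cassette exons. No intron sequence was used here.

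The name of the set was checked against the annotation, since a listed length says nothing of coding sequence. Of the 961 exons, 662 (68.9%) had the length and flanking introns of 1 annotated exon, and 546 of these (82.5%) lay wholly in coding sequence. Another 52 were partly coding, 33 were untranslated and 31 belonged to transcripts with no coding sequence. A further 133 exons (13.8%) matched an annotated exon by their junctions but at another length, and for 62 of them no annotated length was a multiple of 3. The remainder were 20 that spanned several annotated exons, 136 with no match and 10 in genes not in the annotation. For these the listed length is that of the authors' tables alone, and 736 of the 961 had only 1 LSV, in which the far end of the exon was not read by a junction. Where both ends were read (223 exons), the listed length equalled that between the junctions in 203, and the length between the junctions was not a multiple of 3 in 10.

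Coding exons were more frequent here than among frame-shifting exons, of which 626 were matched at the same length and 377 of those (60.2%) were wholly coding. A coding transcript that skips the exon was annotated for 425 of the 546 coding exons (77.8%), against 137 of the 377 frame-shifting ones (36.3%). Of all variable coding exons, 59.2% of 923 had a length that is a multiple of 3, against 45.1% of 6030 outside the inclusion window. The 546 exons began at the first base of a codon in 258 cases (47.3%), at the second in 192 (35.2%) and at the third in 96 (17.6%). In frame-shifting coding exons these shares were 37.4%, 39.5% and 23.1%. Over all 961 exons, coding or not, the median listed length was 123 nt, with quartiles at 84 and 192 nt and a range of 33 to 5997 nt. The median was 139 nt in all 1186 frame-shifting exons. Among wholly coding exons the medians were 105 nt here and 118 nt in frame-shifting ones. Introns around the 662 matched exons had medians of 2248 nt upstream and 2064 nt downstream, close to the 2091 and 1906 nt of all matched cassette exons.

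**Figure D1:**
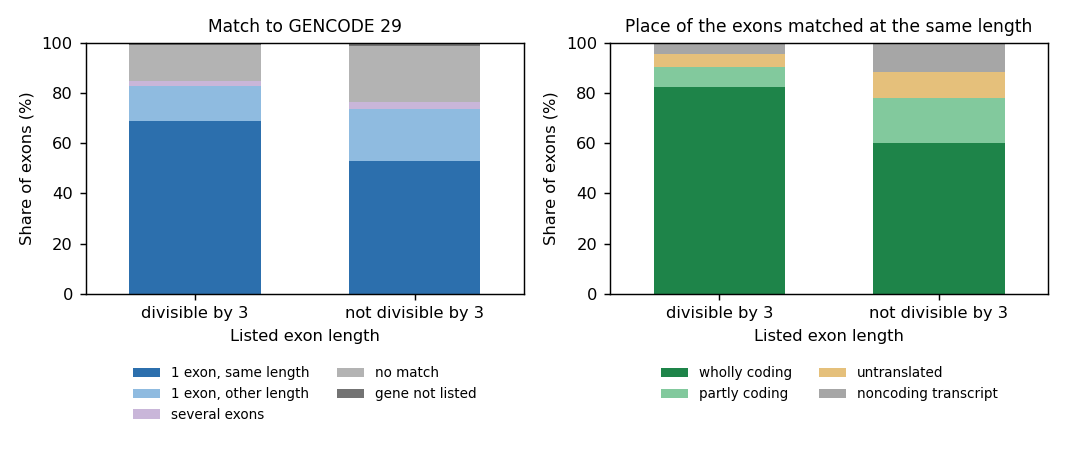
Annotation of variable cassette exons by listed length, divisible by 3 (961 exons) or not (1186 exons). The left panel gives the share of exons (%) by match to GENCODE 29, the right panel the place of the exons matched at the same length (662 and 626). Wholly coding exons made up 82.5% of matched exons on the left of that panel and 60.2% on the right.

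Inclusion of the exons leaned to the high side in every group. The median was 66.5% in shCELF2 cells with PMA and 70.1% in control cells with PMA, 69.0% in shCELF2 cells without PMA and 68.9% in control cells without PMA. Inclusion exceeded 90% in 57 exons of shCELF2 cells and 161 of control cells with PMA, and in 114 exons of shCELF2 cells and 120 of control cells without it. It was under 10% in 50 exons of shCELF2 cells and 58 of control cells with PMA, and in 61 exons of shCELF2 cells and 77 of control cells without it. The mean inclusion was 50% or more in 620 exons and lower in 341. In the tables no share was under 2.5% or over 97.5%, so differences that involve a value at either limit may be understated. Such values were held by 3 exons in shCELF2 cells and 20 in control cells with PMA, and by 11 in shCELF2 cells and 12 in control cells without it. For the 224 exons with a source and a target LSV the 2 values of a group differed by a median of 3.0 to 3.6 points, and by 10.6 to 12.3 points at the 90th percentile. Both LSVs contain the skipping junction, so this is a partial measure of technical spread.

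With PMA, 91 of the 961 exons (9.47%) were called between shCELF2 and control cells, 36 with higher (3.75%) and 55 with lower inclusion (5.72%). The share is near that of frame-shifting exons, at 8.68% of 1186 (4.05% higher, 4.64% lower), against 1.12% of all 19149 cassette exons (0.491% higher, 0.632% lower), most of which lie outside the inclusion window. The count is thus no result about lengths that are a multiple of 3. Without PMA, 44 exons (4.58%) were called, 22 in each direction (2.29% each), against 4.47% of frame-shifting exons (2.61% higher, 1.85% lower) and 0.543% of all cassette exons (0.292% higher, 0.251% lower). Exons with higher inclusion had medians of 64.4% in shCELF2 cells and 18.4% in control cells with PMA, and 69.4% in shCELF2 cells and 29.4% in control cells without it. Those with lower inclusion had medians of 50.1% in shCELF2 cells and 87.6% in control cells with PMA, and 42.4% in shCELF2 cells and 76.7% in control cells without it. Of the called exons with both LSVs, all 33 with PMA and all 13 without had the same sign in source and target, and in 14 and 6 of them both LSVs passed the threshold. Of the 546 exons that lie wholly in coding sequence, 44 were called with PMA (23 higher, 21 lower) and 23 without (11 higher, 12 lower). With PMA calls were made for 8.16% of exons matched to 1 annotated exon at the listed length. The share was 11.3% of those matched at another length and 15.4% of those with no match. Without PMA these shares were 4.68%, 2.26% and 6.62%.

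Across the 961 exons the authors' expected changes with and without PMA had a Pearson r of 0.486, given as a description since many of these values are drawn close to 0 by the authors' model. The exons called with PMA alone numbered 72, of which 58 had the same sign without PMA. A posterior probability under 0.05 without PMA was held by 43 of these 72, and by 659 of all 961 exons. Those called without PMA alone numbered 25, of which 20 had the same sign with PMA. A posterior probability under 0.05 with PMA was held by 11 of these 25, and by 523 of all 961 exons. Such low values were thus no more frequent in either group of called exons than in the whole set. Whether the change in shCELF2 cells differs between the states was not tested for any exon, since the tables were quantified separately.

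**Figure D2:**
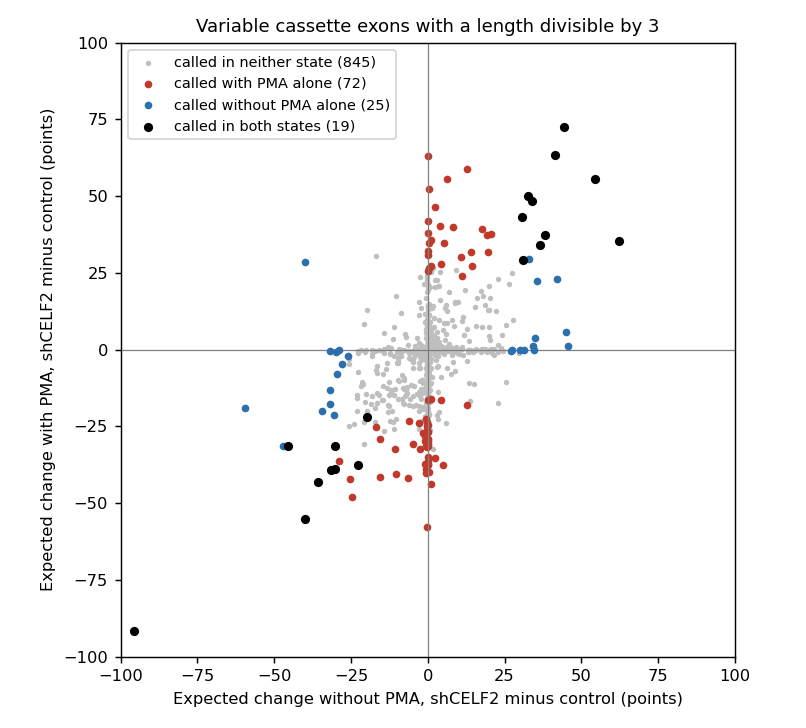
Authors' expected change in inclusion, shCELF2 minus control, without PMA (x axis) and with PMA (y axis), in percentage points. Each dot is 1 of the 961 exons, coloured by the state or states in which it was called, and the 19 black dots called in both states all lie in the quadrants of equal sign.

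Called in both states were 19 exons (1.98%, against 1.35% of frame-shifting and 0.204% of all cassette exons), 10 with higher and 9 with lower inclusion, each in the same direction in both states. They were 20.9% of the exons called with PMA and 43.2% of those called without. The annotation held 11 of them at the listed length, 9 of these wholly coding, while 2 matched at another length and 6 had no match. The absolute expected change was larger with PMA in 13 and smaller in 6.

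The largest expected change was in ARHGEF11, a guanine nucleotide exchange factor for small GTPases. Its exon of 75 nt at chr1:156933484-156933558 had inclusion of 4.8% in shCELF2 and 94.2% in control cells with PMA, and of 2.9% in shCELF2 and 96.3% in control cells without PMA. The exon was thus nearly always skipped in shCELF2 cells and nearly always included in control cells, but it had no match in the annotation, so its frame is that of the listed length alone. PPP1R12A, the subunit that targets myosin phosphatase, had an exon included at 70.1% in shCELF2 and 8.4% in control cells with PMA, and at 79.5% in shCELF2 and 39.2% in control cells without it. That exon is listed with 225 nt where the annotated exon has 177. Of the other cytoskeletal and motor genes, KIF27, a kinesin, had inclusion of 74.4% in shCELF2 and 20.1% in control cells with PMA, and of 88.0% in shCELF2 and 35.0% in control cells without PMA. The KIF27 exon, listed with 78 nt, had no match in the annotation, and a de novo junction is listed there.

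MYO5A, a myosin that carries organelles along actin, lost inclusion of an exon of 75 nt that adds 25 codons to its coding sequence. Inclusion was 56.0% in shCELF2 and 94.0% in control cells with PMA, and 36.7% in shCELF2 and 66.9% in control cells without PMA. Source and target LSV gave 59.1% and 52.8% for shCELF2 cells with PMA, and 94.0% each for control cells. NF2, the tumour suppressor merlin that links membrane and actin, gained inclusion of a partly coding exon of 60 nt, with 64.9% in shCELF2 and 28.5% in control cells with PMA, and 54.4% in shCELF2 and 17.0% in control cells without PMA. PTK2B, the adhesion kinase PYK2, gained a coding exon of 126 nt, with 85.3% in shCELF2 and 38.3% in control cells with PMA, and 84.2% in shCELF2 and 50.9% in control cells without PMA. In the 2 groups of shCELF2 cells the PTK2B values lay within 1.1 points of each other.

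In signalling, the MALT1 exon of 33 nt adds 11 codons to the paracaspase. It was included at 91.2% in shCELF2 and 42.2% in control cells with PMA, and at 69.5% in shCELF2 and 37.4% in control cells without PMA. With PMA the source and target LSV had 92.3% and 90.1% in shCELF2 cells and 45.3% and 39.2% in control cells, so the change far exceeded their disagreement. PSD, an exchange factor for ARF6, had an exon of 396 nt with no match, included at 81.1% in shCELF2 and 46.6% in control cells with PMA, and at 69.3% in shCELF2 and 8.7% in control cells without PMA. LRCH4, a leucine-rich repeat protein, had an unmatched exon of 645 nt at 86.5% in shCELF2 and 15.8% in control cells with PMA, and at 83.9% in shCELF2 and 40.5% in control cells without PMA.

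GOLGA2, the cis-Golgi matrix protein GM130, lost inclusion of a coding exon of 81 nt, or 27 codons. Inclusion was 11.8% in shCELF2 and 65.5% in control cells with PMA, and 20.8% in shCELF2 and 59.9% in control cells without PMA. All 4 of its LSV values, source and target in each state, passed the threshold in the authors' deposited tables, with expected changes of -56.2 and -54.0 points with PMA and -41.2 and -39.0 points without. CLSTN1, a membrane protein that links vesicles to kinesin 1, had a coding exon of 57 nt at the lowest value of the tables in control cells of both states, 2.5%. In shCELF2 cells it was included at 44.7% with PMA and 32.3% without PMA.

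MED12, a subunit of the kinase module of Mediator, had a coding exon of 51 nt with inclusion of 57.9% in shCELF2 and 88.7% in control cells with PMA, and of 46.6% in shCELF2 and 90.8% in control cells without PMA. No annotated transcript skips it, and the table lists a de novo junction there. HDAC10, a deacetylase that acts on polyamines, had an exon at 58.8% in shCELF2 and 89.4% in control cells with PMA, and at 42.0% in shCELF2 and 71.5% in control cells without PMA. That exon is listed with 267 nt where the annotated exon has 97, which is not a multiple of 3. The homeobox gene HMBOX1 had an unmatched exon at 35.8% in shCELF2 and 2.6% in control cells with PMA, and at 44.9% in shCELF2 and 9.4% in control cells without PMA. ZNF197, a zinc finger gene, had an unmatched exon of 3363 nt at 59.2% in shCELF2 and 97.4% in control cells with PMA, and at 55.6% in shCELF2 and 86.3% in control cells without PMA.

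ASPM, a spindle pole protein whose loss causes microcephaly, had the longest matched exon of the set, 4755 nt wholly in coding sequence. Inclusion was 19.3% in shCELF2 and 56.0% in control cells with PMA, and 33.3% in shCELF2 and 59.0% in control cells without PMA. Its LSVs disagreed: without PMA the source LSV had 56.5% in shCELF2 and 70.9% in control cells, with a posterior probability in the authors' deposited table of 0.187, and the target LSV 10.2% in shCELF2 and 47.1% in control cells, with 0.997. Of the mitochondrial proteins, ATPAF1, an assembly factor of ATP synthase, had a coding exon of 51 nt at 71.2% in shCELF2 and 92.4% in control cells with PMA, and at 77.8% in shCELF2 and 97.2% in control cells without PMA. For ATPAF1 only the target LSV passed the threshold in each state, with posterior probabilities of 0.954 and 0.963. AUH, a hydratase of leucine breakdown, had an exon of 162 nt, annotated in transcripts with no coding sequence, at 6.2% in shCELF2 and 48.2% in control cells with PMA, and at 13.6% in shCELF2 and 48.6% in control cells without PMA. SPATS2L gained a coding exon of 207 nt, with 40.3% in shCELF2 and 11.5% in control cells with PMA, and 47.1% in shCELF2 and 16.7% in control cells without PMA.

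**Figure D3:**
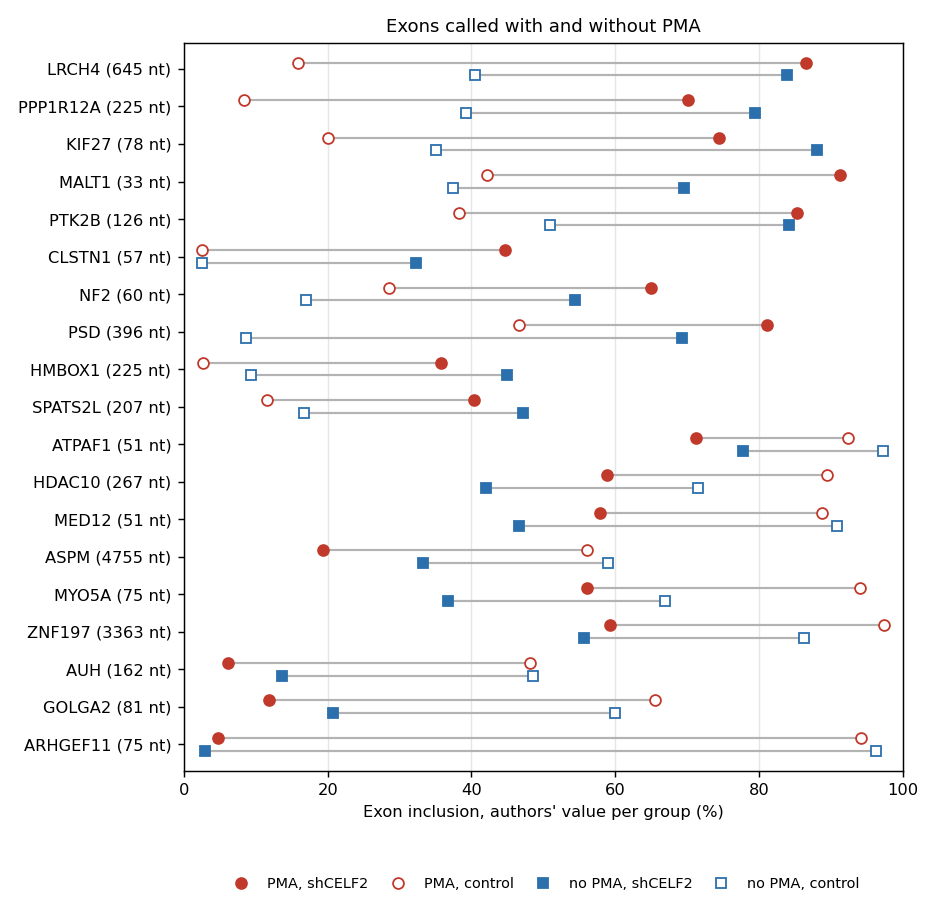
Inclusion (%) of the 19 exons called in both states, as the authors' value per group, with lengths in nt. Red circles are cells with PMA and blue squares cells without, filled for shCELF2 and open for control, and lines join the groups compared. In every exon the filled symbols lie on the same side of the open ones in both states.

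Among exons called with PMA alone, the largest expected changes were in FAT1, described below, PITPNM2, AC005154.6, SEC16A and PTPN4. PITPNM2, a phosphatidylinositol transfer protein, had a coding exon of 144 nt at 60.1% in shCELF2 and 2.8% in control cells with PMA, and at 40.8% in shCELF2 and 23.0% in control cells without PMA. SEC16A, the scaffold of endoplasmic reticulum exit sites, had a coding exon of 60 nt at 65.4% in shCELF2 and 11.1% in control cells with PMA, and at 54.6% in shCELF2 and 43.2% in control cells without PMA. In both genes the control value with PMA lay under that without it, by 20.2 points in PITPNM2 and 32.1 points in SEC16A, while the shCELF2 value lay above. Exons called with PMA alone were chosen partly by their control value with PMA. That choice favours such a pattern, which was not tested. PTPN4, a tyrosine phosphatase of the cytoplasm, had a coding exon of 69 nt at 91.8% in shCELF2 and 40.8% in control cells with PMA, and at 89.0% in shCELF2 and 83.0% in control cells without PMA. An exon of AC005154.6, in transcripts with no coding sequence, went the other way, with 21.8% in shCELF2 and 78.1% in control cells with PMA, and 33.3% in shCELF2 and 36.8% in control cells without PMA.

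Among exons called without PMA alone, ATP6AP1L, SLC30A6, RPGRIP1L, GRIP1 and ING2 had the largest expected changes. ATP6AP1L had an unmatched exon of 78 nt at 76.8% in shCELF2 and 96.5% in control cells with PMA, and at 38.9% in shCELF2 and 96.9% in control cells without PMA. A de novo junction is listed for the ATP6AP1L exon. SLC30A6, a zinc transporter of the Golgi, had an untranslated exon of 75 nt at 43.7% in shCELF2 and 76.6% in control cells with PMA, and at 31.1% in shCELF2 and 77.0% in control cells without PMA. Both genes thus had lower values in shCELF2 cells in either state, with posterior probabilities with PMA of 0.808 and 0.87 in the authors' deposited table, under the threshold. RPGRIP1L, a protein of the ciliary transition zone, had a coding exon of 102 nt at 52.2% in shCELF2 and 44.6% in control cells with PMA, and at 88.4% in shCELF2 and 43.8% in control cells without PMA. GRIP1, a scaffold with PDZ domains, had a coding exon of 45 nt at 20.3% in shCELF2 and 4.8% in control cells with PMA, and at 46.8% in shCELF2 and 3.0% in control cells without PMA. ING2, a chromatin reader of the inhibitor of growth family, had an unmatched exon of 237 nt at 25.5% in shCELF2 and 3.0% in control cells with PMA, and at 49.6% in shCELF2 and 8.4% in control cells without PMA.

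The exons were then grouped by 8 gene lists, which were written with earlier results of these data known and so give no independent evidence of a direction. The list of actin cytoskeleton and adhesion had 13 exons in 10 genes, of which 7 were called with PMA (53.8%, against 9.47% of all 961 exons), 6 higher and 1 lower in shCELF2 cells. Its median expected change was 20.43 points with PMA, against -0.174 points over all 961 exons, and 0.28 points without PMA, against 0.008. Without PMA 2 of the 13 were called (15.4%, against 4.58% of all 961 exons), NF2 and PTK2B, both with higher inclusion in shCELF2 cells. MYO9B, an unconventional myosin, had a coding exon of 48 nt at the highest value of the tables, 97.5%, in shCELF2 cells of both states, against 60.8% in control cells with PMA and 77.5% in control cells without it.

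FAT1, an atypical cadherin, had an unmatched exon of 192 nt at 73.3% in shCELF2 and 11.9% in control cells with PMA, and at 71.7% in shCELF2 and 69.6% in control cells without PMA. In FAT1 the control value with PMA lay 57.7 points under that without PMA, while the shCELF2 values differed by 1.6 points. FAT1 was named for its change with PMA, which rests on the same control value. That choice favours such a pattern, which was not tested. PPFIBP1, or liprin beta 1, had an exon at 56.0% in shCELF2 and 16.9% in control cells with PMA, and at 29.3% in shCELF2 and 13.6% in control cells without PMA. ADD3, an adducin that caps actin filaments, was the exon called lower, with 39.0% in shCELF2 and 85.7% in control cells with PMA, and 51.6% in shCELF2 and 75.5% in control cells without PMA. Listed lengths differ from the annotation for both, with 390 nt against 33 in PPFIBP1 and 423 nt against 96 in ADD3. The exons not called included 3 of MPRIP, which binds myosin phosphatase, and 1 each of MACF1 and FMNL3, with posterior probabilities up to 0.719 with PMA, in MACF1, where inclusion was 31.4% in shCELF2 and 11.5% in control cells.

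**Figure D4:**
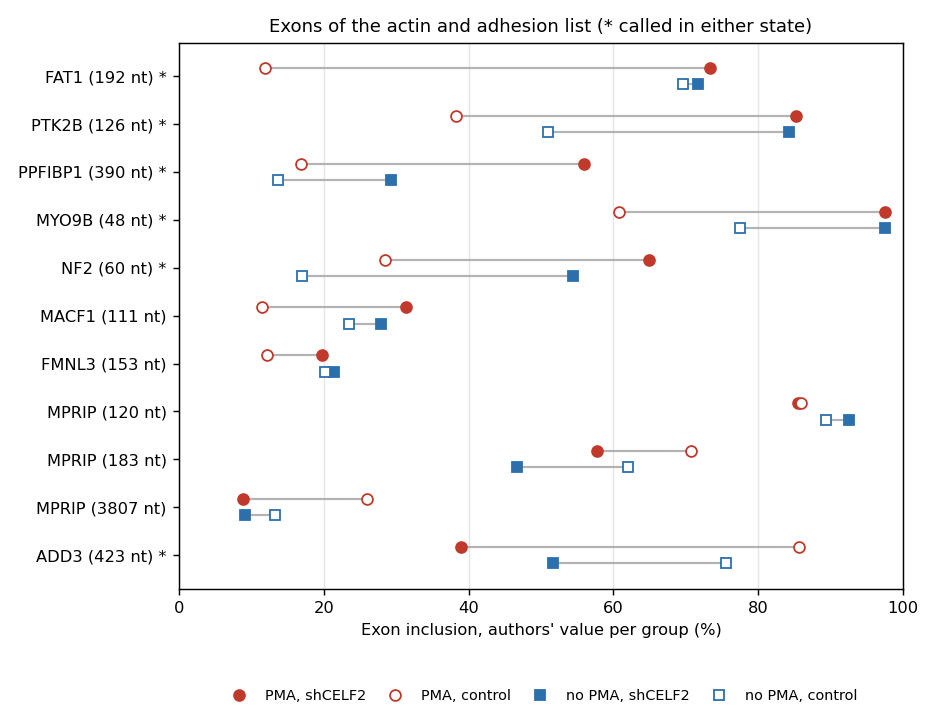
Inclusion (%) of 11 of the 13 exons of the actin and adhesion list, as the authors' value per group, with symbols and lines as defined in the legend. The exons are in order of the expected change with PMA, asterisks mark the 6 of them called in either state, and the filled red circle lies right of the open one in 5 of these 6.

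Of 11 exons of RNA-binding and splicing factors 2 were called with PMA (18.2%, against 9.47% of all 961 exons), both lower in shCELF2 cells. Without PMA 0 were called, against 4.58% of all 961 exons. ACIN1, or acinus, which binds RNA beside the exon junction complex, had a coding exon of 120 nt at 36.6% in shCELF2 and 76.9% in control cells with PMA, and at 36.1% in shCELF2 and 52.2% in control cells without PMA. HNRNPA1, a splicing repressor, had a coding exon of 117 nt at 74.6% in shCELF2 and 96.4% in control cells with PMA, and at 90% in shCELF2 and 95% in control cells without PMA. Only the target LSV of the HNRNPA1 exon passed the threshold, at 0.955. No annotated transcript skips this exon, and a de novo junction is listed there. The gene has processed pseudogenes, and reads shared with them were not measured here.

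Of 28 exons of chromatin and transcription factors 3 were called with PMA (10.7%), near the 9.47% of all 961 exons. Without PMA 1 was called, MED12 (3.57%, against 4.58%). The others called with PMA were in ARID1B, a subunit of the BAF remodelling complex, and ZMYND8, a reader of histone marks. The ARID1B exon is listed with 447 nt where the annotated exon has 159, and the ZMYND8 exon of 84 nt had no match. With PMA ARID1B stood at 83.5% in shCELF2 and 52.3% in control cells, and ZMYND8 at 39.6% in shCELF2 and 8.4% in control cells. Without PMA ARID1B stood at 73.4% in shCELF2 and 52.9% in control cells, and ZMYND8 at 37.2% in shCELF2 and 19.8% in control cells. Exons of the BAF helicases SMARCA2 and SMARCA4 were not called. SMARCA2 had 22.2% in shCELF2 and 37.0% in control cells with PMA, and SMARCA4 had 7.9% in shCELF2 and 16.1% in control cells.

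Cell cycle genes had 17 exons, of which 3 were called with PMA (17.6%, against 9.47% of all 961 exons). Without PMA 0 were called, against 4.58%. FANCA, of the Fanconi anaemia core complex, had an unmatched exon of 726 nt at 6.5% in shCELF2 and 45.7% in control cells with PMA, and at 3.6% in shCELF2 and 9.9% in control cells without PMA. MAD1L1, the spindle checkpoint protein MAD1, had an unmatched exon of 462 nt at 37.2% in shCELF2 and 12.2% in control cells with PMA, and at 3.1% in shCELF2 and 2.5% in control cells without PMA. NEK1, a kinase of cilia and DNA repair, had an exon at 50.1% in shCELF2 and 88.1% in control cells with PMA, and at 32.9% in shCELF2 and 40.5% in control cells without PMA. In NEK1 the tables list 1809 nt, while the junctions and the annotation both give 132.

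The list of vesicle traffic had 12 exons, 3 of them called with PMA (25%, against 9.47% of all 961 exons), 1 higher and 2 lower. Without PMA 1 was called, GOLGA2 (8.33%, against 4.58%). The exons called with PMA were those of SEC16A, GOLGA2 and STX2, a syntaxin of membrane fusion. The STX2 exon, unmatched and of 378 nt, stood at 14.5% in shCELF2 and 44.5% in control cells with PMA. Without PMA it stood at 10.4% in shCELF2 and 9.7% in control cells. A de novo junction is listed for the STX2 exon. Of 10 exons of MAPK and small GTPase signalling 2 were called with PMA (20.0%, against 9.47% of all 961 exons), ARHGEF11 and ARHGAP12. Only 1 of these 10 was called without PMA, ARHGEF11, against 4.58% of all 961 exons. ARHGAP12, a GTPase-activating protein of Rac, had a coding exon of 141 nt at 72.8% in shCELF2 and 27.5% in control cells with PMA, and at 58.7% in shCELF2 and 51.3% in control cells without PMA. T cell receptor and NF-kappaB signalling had 2 exons, MALT1, called in both states, and FYB, an adaptor of integrin activation. The FYB exon of 138 nt had 24.5% in shCELF2 and 2.5% in control cells with PMA, with a posterior probability in the authors' deposited table of 0.878, and 6.3% in shCELF2 and 9.1% in control cells without PMA. Of 6 exons in genes reported for CELF2 or activated T cells 3 were called with PMA (50%, against 9.47% of all 961 exons), all higher in shCELF2 cells, MALT1, SEC16A and CLSTN1. Without PMA 2 were called (33.3%, against 4.58%), MALT1 and CLSTN1. Since that list draws on earlier work in the same cells, its count is no independent evidence either.

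Cells with and without PMA were compared by the difference of the authors' group values between the tables, which has no posterior probability and no test. In shCELF2 cells 73 exons (7.60%) differed by 20 points or more, 37 with higher (3.85%) and 36 with lower inclusion with PMA (3.75%). The share was 7.25% in frame-shifting (3.46% higher, 3.79% lower) and 0.893% in all cassette exons (0.439% higher, 0.454% lower). In control cells 114 exons (11.9%) differed by as much, 73 higher (7.60%) and 41 lower (4.27%), against 12.9% of frame-shifting (7.59% higher, 5.31% lower) and 1.49% of all cassette exons (0.898% higher, 0.590% lower). In neither kind of cell was the share of these exons far from that of frame-shifting ones. The median absolute difference over the 961 exons was 6.9 points in shCELF2 and 7.2 points in control cells. In 14 exons the difference reached 20 points in both kinds of cells, each time in the same direction. Between source and target LSV the differences of an exon disagreed by a median of 2.9 points in shCELF2 and 2.5 points in control cells.

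A difference of 20 points in both the source and the target LSV was found for 7 exons in shCELF2 and 20 exons in control cells. The exons named next were chosen by their difference in control cells alone. That choice favours a smaller difference in shCELF2 cells, so the 2 kinds of cells cannot be compared on these exons. The largest difference in control cells was that of NEK1, described above, at 47.6 points. DHX34, an RNA helicase of nonsense-mediated decay, had an exon of 75 nt at 69.8% with PMA and 57.3% without in shCELF2 cells, and at 91.0% with PMA and 46.7% without in control cells. EFNA3, an ephrin ligand, had a coding exon of 78 nt at 59.0% with PMA and 53.0% without in shCELF2 cells, and at 72.2% with PMA and 42.0% without in control cells. These exons had higher inclusion with PMA in either kind of cell, by 5.9 to 17.2 points in shCELF2 cells and by 30.2 to 47.6 points in control cells. In UBR3, a ubiquitin ligase, and ENTHD2, a partner of the AP-4 coat, the difference in shCELF2 cells was -0.8 and -1.9 points. The UBR3 exon stood at 92.7% with PMA and 93.5% without in shCELF2 cells, and at 96.2% with PMA and 66.8% without in control cells. No annotated transcript skips the UBR3 exon, and a de novo junction is listed there. The ENTHD2 exon stood at 64.4% with PMA and 66.3% without in shCELF2 cells, and at 86.4% with PMA and 57.0% without in control cells.

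Lower inclusion with PMA in control cells was found in TTC8, CSPP1 and FRYL. TTC8, a subunit of the BBSome, had a coding exon of 84 nt at 97.4% in shCELF2 cells both with and without PMA, and at 67.2% with PMA and 95% without in control cells. CSPP1, a centrosome and spindle pole protein, had a coding exon of 153 nt at 96.3% with PMA and 97.4% without in shCELF2 cells, and at 62.3% with PMA and 92.3% without in control cells. Both exons were also called between shCELF2 and control cells with PMA, which rests on the same control value.

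FRYL, the gene with the most exons in the set, 4, had an unmatched exon of 45 nt at 7.8% with PMA and 24.2% without in shCELF2 cells, and at 4.5% with PMA and 32.2% without in control cells. A de novo junction is listed for this FRYL exon. RUNDC3A-AS1, an antisense RNA with no coding sequence, had an exon of 63 nt at 14.8% with PMA and 18.2% without in shCELF2 cells, and at 45.1% with PMA and 15.6% without in control cells.

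**Figure D5:**
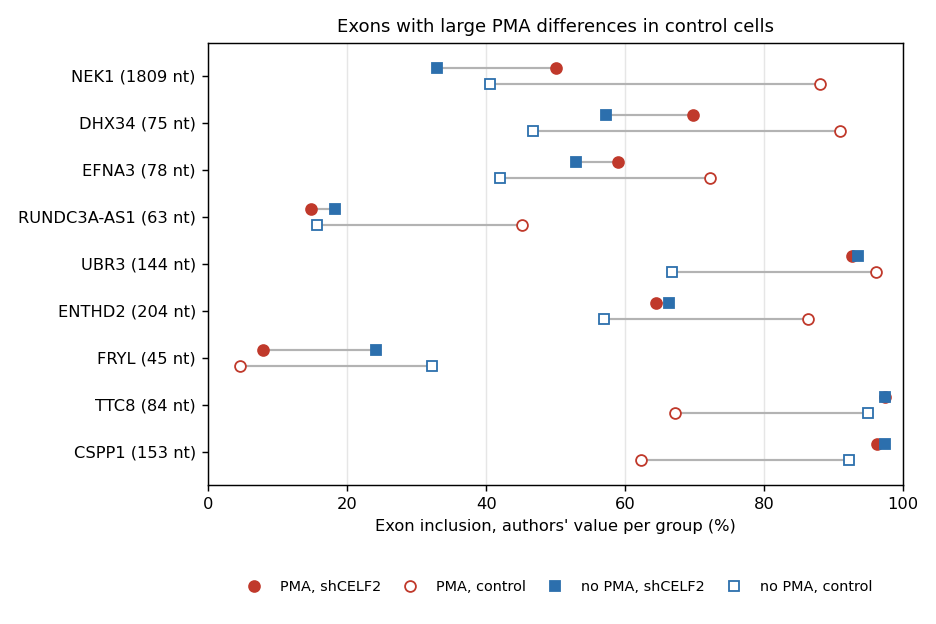
Inclusion (%) of 9 of the 10 exons with the largest PMA differences in control cells among those whose source and target LSV each differed by 20 points or more. Lines join cells with PMA (red circles) and without PMA (blue squares), above for shCELF2 cells (filled) and below for control cells (open). The upper line is shorter than the lower in each of the 9, an order favoured by the choice of exons on control cells alone.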

How the data were processed

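RNA of JSL1 cells was sequenced from stranded TruSeq libraries, per the labels' protocols. The authors deposited 2 tables, 1 per state, with 4 values per junction of an LSV: its share in control and in shCELF2 cells (a fraction), the expected change, and a posterior probability for changes of 20 points or more, per the file headers. Column names match VOILA output of MAJIQ. Its version, its annotation and any read filter are not stated in these sources. STAR 2.5.1b and hg19 appear in the submitters' processing notes with no role. No value exists per library, so no count model, standard deviation or interval was possible, and depth is unknown. There were 0 unused columns of per-sample values.

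Exons were selected, merged, called and annotated with Python 3.11.15 and numpy 2.4.6, and figures drawn with matplotlib 3.10.9. Selection and matching were tested on simulated data. An expected change is shCELF2 minus control and is drawn towards 0 by the authors' model. GENCODE 29 was matched by gene ID and lengths, no coordinate was converted between builds, and exons in 2 overlapping gene IDs (3 of the set) were kept. Reads shared with paralogs or pseudogenes could not be resolved.

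The exons, the 8 gene lists and the tests were chosen with earlier results of these data known. Exons were named by rule: those called in both states, the 12 largest expected changes of called exons per state, called exons of a gene list, the 10 largest PMA differences in control cells supported by both LSVs, and the exons nearest the ends of the window. List members named without a call were chosen after their values were seen. A few exons that the rule names are not reported here. Alternatives covered the posterior threshold, the LSVs used, de novo junctions, the window, exon length, calls by size and shared gene IDs. A median inclusion was taken as moved where it changed by more than the median disagreement of source and target LSVs.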

Additional observations from a re-analysis of the deposited data

How the results depend on the processing

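Alternatives were run for the number of exons, the counts of calls, the counts of PMA differences and the group medians, and not for the gene lists, annotation shares, TGT counts or single exons. The order of the medians without PMA, 69.0% in shCELF2 and 68.9% in control cells, turned with source LSVs alone (68.4% in shCELF2 and 69.4% in control cells) and with target LSVs alone (68.3% in shCELF2 and 68.4% in control cells). Each of these gaps is smaller than the median disagreement of source and target LSVs. Source LSVs alone left 589 exons, with 49 called with PMA (18 higher, 31 lower), 20 without (11 higher, 9 lower), 9 in both states, and 68 PMA differences in control cells. Target LSVs alone left 587 exons, with 57 called with PMA (33 lower), 30 without (13 higher, 17 lower), 12 in both, and PMA differences in 45 exons of shCELF2 and 74 of control cells. Requiring the listed length to equal that between the junctions left 203 exons, with 28 called with PMA (10 higher, 18 lower), 12 without (5 higher, 7 lower), 6 in both, and PMA differences in 11 exons of shCELF2 and 31 of control cells. A window of 20% to 80% left 456 exons, with 35 called lower with PMA, and medians of 55.9% in shCELF2 and 59.3% in control cells with PMA, and 57.1% in shCELF2 and 56.7% in control cells without. The source, target, length and window settings kept fewer exons than the main 961, so lower counts there need not be lower shares. At a posterior probability of 0.99, 34 exons were called lower with PMA and 14 without. Calls by an expected change of 20 points, with no posterior threshold, numbered 152 with PMA (66 higher, 86 lower), 90 without (44 higher, 46 lower) and 37 in both, and at 10 points 321 (111 higher, 210 lower), 207 (101 higher, 106 lower) and 110. PMA differences of 10 points were found in 327 exons of shCELF2 and 360 of control cells. Leaving out de novo junctions moved the medians to 66.3% in control cells with PMA, and to 65.3% in shCELF2 and 64.7% in control cells without. In alternatives chosen after seeing the data, the 662 exons matched to 1 annotated exon gave 54 calls with PMA. The 546 coding exons gave 44 with PMA and 23 without.

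No paired analysis was possible because the tables give 1 pooled value per group, and for the same reason no library could be left out. Under the alternatives 62 values stayed within 1.5 times the main count or within the disagreement of source and target LSVs. Beyond these limits, 33 counts were lower, 16 counts were higher and 7 medians had moved. The unknown depth, the lack of library values and listed exon lengths that no junction bounds limit what the values can show.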

Other observations

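The set held 39 exons with a listed length of over 1000 nt. Of these 10 (25.6%) were called in either state, against 116 of all 961 exons (12.1%). The share holds for listed lengths alone, since the called NEK1 exon is listed with 1809 nt where its junctions give 132. Of the 39 exons only 8 matched 1 annotated exon at the listed length, 7 of them wholly coding. Beside ASPM and MPRIP these coding exons were in NIN, YLPM1, YTHDF1, SLK and MKI67. MKI67, the proliferation marker Ki-67, had an exon of 1080 nt at 89.1% in shCELF2 and 63.1% in control cells with PMA, and at 47.9% in shCELF2 and 44.5% in control cells without PMA. NIN, or ninein, which anchors microtubules at the centrosome, had an exon of 2139 nt at 29.4% in shCELF2 and 2.7% in control cells with PMA, and at 8.9% in shCELF2 and 2.6% in control cells without PMA. SLK, a kinase of the cytoskeleton, had an exon of 1356 nt at 63.1% in shCELF2 and 89.8% in control cells with PMA, and at 83.7% in shCELF2 and 89.0% in control cells without PMA. No annotated transcript skips the SLK exon, and a de novo junction is listed there. YLPM1 had an exon of 2118 nt at 70.6% in shCELF2 and 93.4% in control cells with PMA, and at 70.7% in shCELF2 and 81.4% in control cells without PMA. The YLPM1 call rests on the source LSV, with -32.6 points and an authors' posterior probability of 0.997 with PMA. Its target LSV had -13.9 points and 0.125. The exons of MKI67, NIN, SLK and YLPM1 were called with PMA and not without, 2 in each direction. The YTHDF1 exon of 1521 nt, in a reader of methylated adenosine in RNA, was not called, with 92.2% in shCELF2 and 97.3% in control cells with PMA.

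In 3 called exons the difference between shCELF2 and control cells had opposite signs in the 2 states, each by 10 points or more, chosen after the values were seen and not tested. BCORL1, a transcriptional corepressor, had 22.6% in shCELF2 and 44.0% in control cells with PMA, and 38.9% in shCELF2 and 20.0% in control cells without PMA. Its LSVs disagreed: the expected change with PMA was -35.2 points in the source and -0.7 points in the target LSV, and without PMA 0.9 points in the source and 24.8 points in the target LSV, so the opposite signs rest on different LSVs. LTBP3, a binding protein of latent TGF-beta, had 5.2% in shCELF2 and 42.0% in control cells with PMA, and 18.1% in shCELF2 and 3.6% in control cells without PMA. ZKSCAN3, a repressor of autophagy genes, had an untranslated exon at 35.8% in shCELF2 and 6.0% in control cells with PMA, and at 16.6% in shCELF2 and 56.5% in control cells without PMA. In each gene only 1 of the 2 differences passed the threshold.

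There were 86 genes with 2 or more exons in the set. PARD3, a cell polarity scaffold, had 3 coding exons, of 39, 111 and 132 nt, none of them called. With PMA the exon of 39 nt had 31.9% in shCELF2 and 31.6% in control cells, that of 111 nt 78.9% in shCELF2 and 69.6% in control cells, and that of 132 nt 76.1% in shCELF2 and 83.5% in control cells. FAM13B had 3 exons, of which 2 were called without PMA in opposite directions. The exon of 192 nt had 85.7% in shCELF2 and 52.3% in control cells without PMA, and that listed with 168 nt, where the annotated exon has 84, had 62.7% in shCELF2 and 93.9% in control cells.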
